A study of Homo sapiens and Mus musculus with 16 samples.

Results

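The genes described here are 38 genes of the DNA damage response and the Fanconi anemia pathway, listed by human symbol. All 38 were found among the 22286 genes of the human count table. In the mouse table of 15881 genes 36 had a row under the same symbol, ignoring case, and MRE11 and TP53BP1 had none under those symbols. P-bodies are cytoplasmic granules of RNA and protein that hold untranslated mRNA. The study sorted them by the fluorescence of GFP fused to LSM14A, a P-body protein, and asked which transcripts they hold in each of 4 cell types. RNA of sorted P-bodies and of cytoplasm was sequenced with 2 libraries per fraction and cell type, 16 in all. By the study's methods the cytoplasm was an aliquot of the resuspended pellet that went into the sorter, so it still contained P-bodies.

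All cells carried LSM14A-GFP. HEK293T, a human embryonic kidney line that also carries the SV40 large T antigen, expressed it from the EF1a promoter of a lentiviral vector. So did mESC, mouse embryonic stem cells of line KH2 kept in serum-LIF. The liver bud progenitors and the neurons at day 20 were both derived from UCLA4, a human embryonic stem cell line, with the fusion in a tet construct for the AAVS1 locus. HEK293T and mESC libraries were labelled total RNA and the remaining libraries polyA RNA. Cell type and RNA label therefore cannot be told apart where HEK293T or mESC are set beside the UCLA4 derivatives, and no such difference was tested. The labels do not say whether replicates were separate cultures, while the paper's reporting summary describes its sequencing assays as done with biological replicates. The p-values measure the spread between these libraries, which may be technical where replicates were not separate cultures.

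Cells meet damaged DNA with sensors, with kinases that stop the cell cycle, and with repair routes chosen by the lesion. In the Fanconi pathway a core complex, anchored by FANCM, attaches ubiquitin to the FANCD2 and FANCI pair at DNA crosslinks, and BRCA1, BRCA2, PALB2 and BRIP1 then act in homologous recombination. ATM and ATR signal breaks and stalled forks to CHEK1 and CHEK2, whereas nucleotide excision, mismatch repair and end joining deal with other lesions.

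More of these transcripts were enriched in P-bodies than depleted in each cell type, although in mESC this rested on the scaling. In HEK293T 18 of 38 were enriched and 11 depleted (edgeR quasi-likelihood test, Benjamini-Hochberg adjusted p under 0.05 over all genes), where 19.3% of all genes tested were enriched and 22.8% depleted. In liver bud progenitors 21 were enriched and 6 depleted, beside 21.4% and 17.1% of all genes. Neurons had 18 enriched and 3 depleted, beside 14.6% and 14.1%. In mESC 18 of 36 were enriched and 3 depleted, beside 25.8% and 20.6%. The median log2 change of the 38 genes was 0.38 in HEK293T and 0.5 in both other human cell types, and that of the 36 in mESC was 0.29. The medians of all genes tested were -0.01, -0.09, 0.19 and -0.11 in the same order.

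Many of the genes tested had few counts, so the shares were also taken over genes that averaged 5 CPM or more (CPM, counts scaled to a common library total with TMM factors). In HEK293T 39.1% of all such genes and 48.6% of the 37 listed ones were enriched. The shares were 41.8% and 58.8% (34 genes) for liver bud progenitors, 23.4% and 54.5% (33 genes) for neurons, and 42.7% and 52.9% (34 genes) for mESC. With library size as the only scaling, which moved the median of all genes in mESC by -0.4 on the log2 scale, 12 of the 36 mESC genes were enriched and 14 depleted, and their median was -0.11. The HEK293T counts were 19 and 7 when all human libraries were fitted together. In neurons they were 19 and 5 without P-body replicate 1. P-body libraries held less ribosomal RNA than cytoplasm libraries, as a share of the library total: 4.32% to 4.75% against 15.9% to 16.6% in HEK293T, 12.5% to 12.8% against 20.4% to 21.1% for liver bud progenitors, 11.4% to 13.4% against 21.5% to 24.9% for neurons and 3.09% to 3.16% against 9.63% to 11% for mESC. With those genes left out before scaling, the enriched and depleted counts of listed genes were the same in each cell type.

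The P-body libraries lay wholly above or wholly below the cytoplasm libraries for 33 of the 38 genes in HEK293T, where this held for 64.8% of all genes. The count was 32 for liver bud progenitors (64.1%), 30 for neurons (65%) and 30 of 36 for mESC (73%). In the 3 human cell types together 14 of the 38 (36.8%) were enriched in every one, against 8.44% of the 21461 genes tested in all 3, and 2 (5.26%) were depleted in every one, against 5.77%. The shares of all genes here include the many genes with few counts, and none is given at 5 CPM or more. Over all 4 cell types 13 genes were enriched in each: FANCB, FANCM, BRCA1, BRCA2, PALB2, BRIP1, RAD50, NBN, CHEK1, MDM2, BLM, PMS2 and LIG4. With library size only, 5 of these were no longer called enriched in mESC: FANCM, BRCA1 and RAD50 were at -0.09, -0.02 and -0.03, PMS2 was at 0.2, and BRCA2 passed as depleted at -0.12. PRKDC was depleted in each cell type. FANCD2, FANCI and RAD51C were called in both directions among the cell types. Of the rest, 10 genes were enriched in some and depleted in none, 9 were depleted in some and enriched in none, FANCF was called in none, and MRE11 in none of the 3 human cell types that have it under that symbol.

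**Figure D1:**
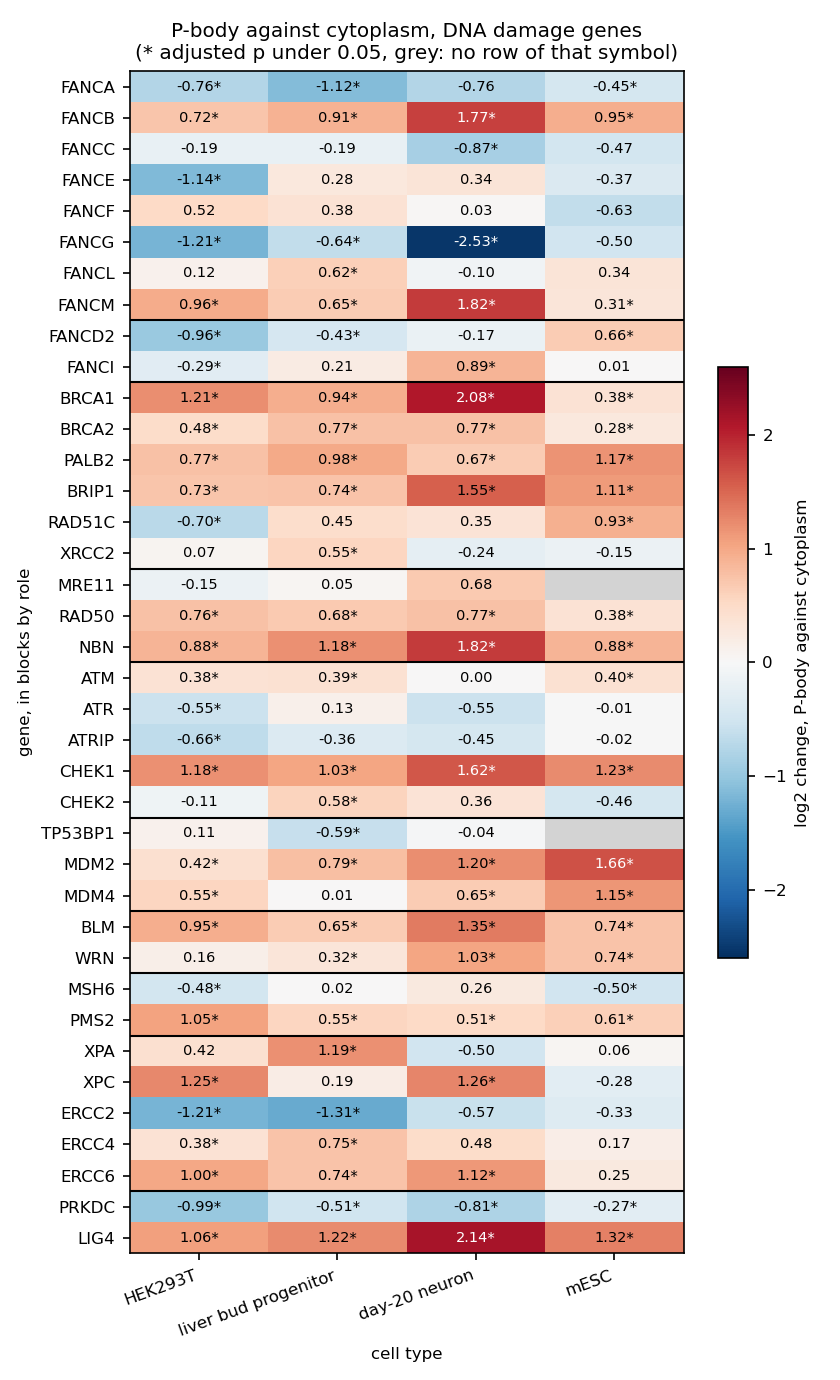
Log2 change of P-body against cytoplasm for the 38 genes (rows, in blocks by role) in the 4 cell types (columns, 2 libraries per fraction), with red above 0, blue below and an asterisk at an adjusted p under 0.05. The rows of BRCA1, CHEK1 and LIG4 are red throughout (the mESC value of BRCA1 is -0.02 with library size only) and that of PRKDC is blue throughout, while FANCD2 turns from -0.96 in HEK293T to 0.66 in mESC.

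The library totals ranged from 6368953 to 17972284 counts, at which 3 counts, taken as the floor of detection, were 0.167 to 0.471 CPM. That floor covers counting error only. Replicates correlated across genes at a Spearman rho of 0.911 in neuron P-bodies and of 0.962 to 0.987 elsewhere. Neuron cytoplasm held 9870 to 9960 CPM over 5 neuronal markers, and mESC cytoplasm 2210 CPM over 6 markers listed for naive pluripotency. Of these, Pou5f1, Nanog and Sox2 are also among the 5 pluripotency markers used below. The others, Zfp42, Esrrb and Klf4, averaged 137, 475 and 185 CPM in mESC cytoplasm. Liver bud progenitor cytoplasm held 364 to 373 CPM over 6 liver bud and endoderm markers, with ALB at 0 counts, and 913 to 929 CPM over 5 pluripotency markers, and the name is used as the label gives it. Over 15 markers of dividing cells the P-bodies held more CPM than the cytoplasm of each cell type: 5620 to 5770 against 4410 to 4420 in HEK293T, 4040 to 4090 against 3560 to 3590 for liver bud progenitors, 3140 to 3350 against 1740 to 1770 for neurons, and 8010 to 8060 against 6400 to 6600 for mESC. Of the 15, 5 were enriched and 5 depleted in HEK293T, 9 and 4 for liver bud progenitors, 5 and 2 for neurons, and 7 were enriched for mESC. Their part in the results was not tested.

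Enriched and depleted transcripts differed in base composition. The P-body change of the listed genes fell with the share of G or C at position 3 of the codons (GC3), with a Spearman rho across genes of -0.468 in HEK293T, -0.635 for liver bud progenitors, -0.599 for neurons (38 genes each) and -0.636 for mESC (36 genes). Over all genes averaging 5 CPM or more the values were -0.525, -0.626, -0.629 and -0.588. The trend was not particular to position 3. With the GC share of the whole transcript the rho was -0.474, -0.654, -0.618 and -0.65 for the listed genes. Over all genes averaging 5 CPM or more it was -0.571, -0.707, -0.663 and -0.689. Genes share libraries and are not independent replicates, and no p is given. The median GC3 of the listed human genes was 39.1%, against 54.1% over all such genes of HEK293T. The 13 genes enriched in every cell type had a GC3 of 26.7% to 48.0% (median 31.8%). The 10 genes depleted in 1 or more cell types and enriched in none had 34.9% to 80.9% (median 54.1%). ATR, depleted in HEK293T at a GC3 of 34.9%, and XPC, enriched in HEK293T and neurons at 57.8%, stood apart from that order. Transcript length was weakly related among the listed genes, with a rho of 0.129, -0.11, 0.127 and 0.158 in the same order of cell types. Over all genes averaging 5 CPM or more the rho with length was 0.32, -0.114, 0.194 and 0.16.

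Stretches of coding sequence are given as an illustration of GC3, not as a test, since each was matched to the GC3 of its gene. PRKDC, depleted in every cell type, has a GC3 of 49.3% and is not among them. Shown are 10 codons each of 3 genes enriched in every cell type (FANCM in mESC not with library size only) and of 3 genes depleted in some with a GC3 over 60%, chosen after their values were seen. The sequences are the coding strand, 5′ to 3′, of GENCODE 44 transcripts on hg38. Each coding sequence was read from its start in consecutive blocks of 10 codons (30 bases). Each line is the first block within 1 exon whose number of codons ending in G or C matches the share of the whole. Position 3 of each codon is in capitals. Those of the enriched genes are LIG4 codons 71 to 80 (exon 3; chr13:108211029-108211058, minus strand), FANCM codons 241 to 250 (exon 3; chr14:45140671-45140700, plus strand) and BRIP1 codons 1 to 10 (exon 2; chr17:61861510-61861539, minus strand). Those of the depleted genes are ERCC2 codons 121 to 130 (exon 6; chr19:45365129-45365158, minus strand), FANCA codons 51 to 60 (exon 2; chr16:89815886-89815915, minus strand) and FANCG codons 41 to 50 (exon 2; chr9:35079176-35079205, minus strand).
LIG4: atTctTccTcaGctAgaAagAgaGagAatG
FANCM: atCttGgcTctAagTgcCacAccAggTagT
BRIP1: atGtcTtcAatGtgGtcTgaAtaTacAatT
ERCC2: gtGacAccCctGcgCttTggGaaGgaCgtC
FANCA: ctGcgAagCcaTcaGgaCctGaaTgcCctT
FANCG: caGttGgcTcaGgaTgcActGgaAggGctC
In the first 3 lines 3 of 10 capitals are G or C, where the whole coding sequences of LIG4, FANCM and BRIP1 have a GC3 of 30.3%, 31.0% and 31.1%. In the ERCC2 line 8 of 10 are (80.9% overall), and in the FANCA and FANCG lines 6 of 10 (63.2% and 60.5% overall).

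**Figure D2:**
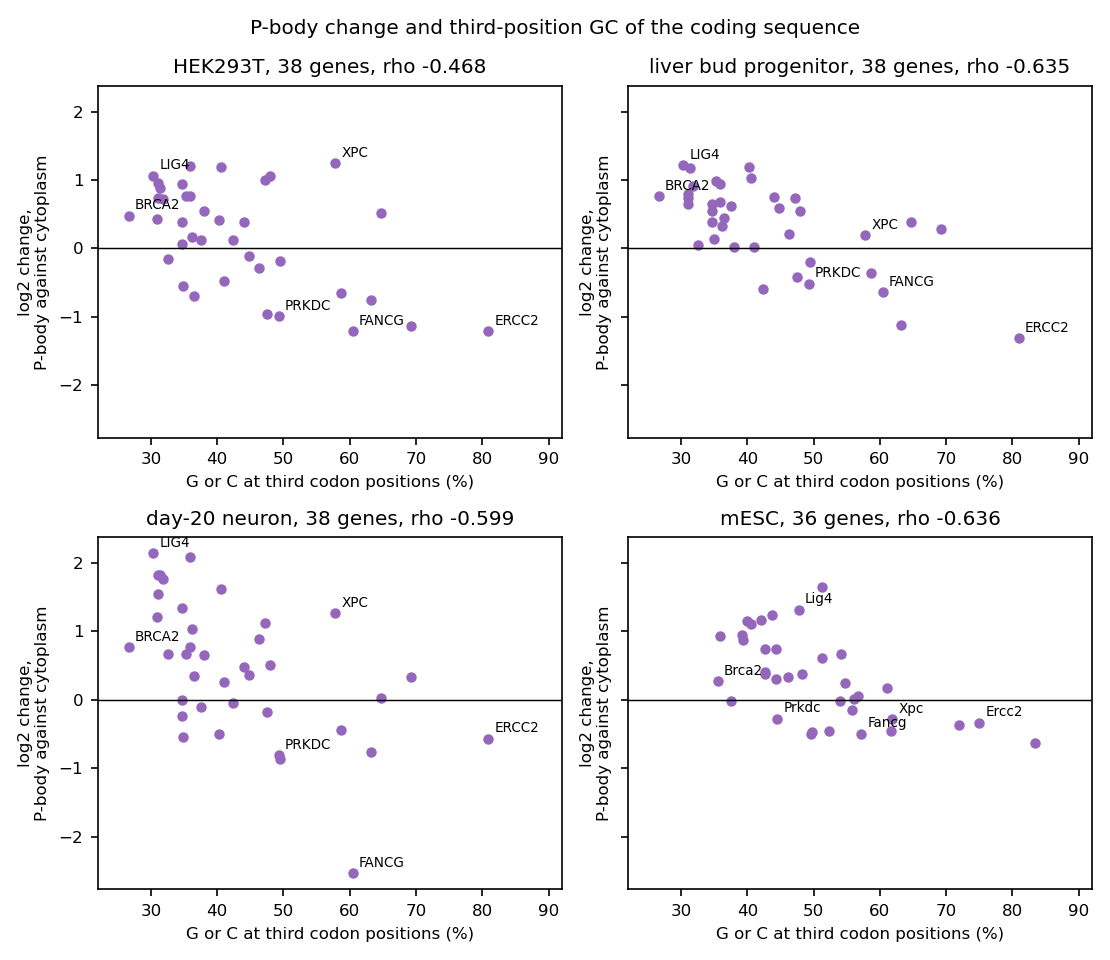
Log2 change of P-body against cytoplasm (y axis) of each listed gene against the share of G or C at position 3 of its codons in percent (x axis), 1 panel per cell type with its Spearman rho. Points fall from upper left to lower right in the 4 panels. In the human panels LIG4 lies high on the left and ERCC2 low on the right. In the mESC panel Lig4 is high, at 1.32, but near the middle, at 47.75% where the median of the listed genes is 49%. Ercc2 lies there at -0.33 and 75%.

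The Fanconi core complex was split. FANCM, the translocase that anchors the complex to DNA, and FANCB, a core subunit, were enriched in every cell type, FANCM in mESC not with library size only. Gene positions are those of GENCODE 44 on hg38, and errors of log2 changes are SE. FANCM (chromosome 14, 45135930 to 45200890, plus strand) had 244 and 245 CPM in P-bodies against 129 and 122 in the cytoplasm of HEK293T, and 88.4 and 70.9 against 53.3 and 48.1 in liver bud progenitors. For FANCM neurons had 55.6 and 63.4 against 14.1 and 19.6, and mESC had 203 and 205 against 161 and 169. FANCM changed by 0.96 ± 0.06, 0.65 ± 0.1, 1.82 ± 0.2 and 0.31 ± 0.05 on the log2 scale (edgeR adjusted p from 3.44e-20 to 2.08e-05). The mESC value was -0.09 with library size only. FANCB (chromosome X, 14690388 to 14873255, minus strand) had 107 and 98.5 CPM in P-bodies against 62.1 and 63.1 in the cytoplasm of HEK293T, and 94 and 95.3 against 52.1 and 48.7 in liver bud progenitors. Values of 22.9 and 13.8 against 4.15 and 6.6 were counted in neurons, and of 20.9 and 17.2 against 8.61 and 11.1 in mESC. This gave log2 changes of 0.72 ± 0.08, 0.91 ± 0.09, 1.77 ± 0.36 and 0.95 ± 0.17 (edgeR adjusted p from 1.72e-13 to 0.00217). For both genes P-bodies lay above cytoplasm in all libraries of each cell type.

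FANCG, FANCA, FANCE and FANCC, subunits of the core complex, were lower in the P-bodies of some cell types. FANCG (chromosome 9, 35073835 to 35080004, minus strand) had the lowest log2 change of the listed genes called in neurons averaging 5 CPM or more. In HEK293T ERCC2 was the lowest such gene at -1.214, with FANCG at -1.207. FANCG had 4.32 and 3.89 CPM in P-bodies against 9.4 and 9.53 in the cytoplasm of HEK293T, and 7.63 and 8.8 against 13.6 and 12.1 in liver bud progenitors. FANCG was at 0.221 and 3.56 against 10.1 and 12.3 in neurons, and at 6.88 and 3.9 against 7.44 and 7.87 in mESC. P-bodies lay below cytoplasm in all libraries of each cell type. FANCG fell by 1.21 on the log2 scale in HEK293T, by 0.64 in liver bud progenitors and by 2.53 in neurons (edgeR adjusted p = 3.36e-06, 0.0143 and 0.0165). In mESC it was at -0.5 and did not pass (0.102), which held under 5 of 7 other scalings, filters and fits. Neuron P-body replicate 1 held 2 counts of it, and the value was -1.65 without that library and -5.59 without P-body replicate 2. The HEK293T call was lost when all human libraries were fitted together (adjusted p = 0.0633). The liver bud call was lost in that fit (0.295), with DESeq2 (0.0999), without cytoplasm replicate 1 (0.115) and without P-body replicate 1 (0.0932).

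FANCA fell by 0.76 on the log2 scale in HEK293T, 1.12 in liver bud progenitors and 0.45 in mESC, and was at -0.76 in neurons without passing (edgeR adjusted p = 0.117). It shares 19.6% of its exonic bases with ZNF276 on the opposite strand. FANCE fell by 1.14 in HEK293T and passed in no other cell type. FANCC fell by 0.87 in neurons, a call that held under 6 of 8 other scalings, filters and fits and was lost without cytoplasm replicate 1 or 2. FANCC did not pass elsewhere, which in mESC held under 5 of 7 such settings. FANCL, the ubiquitin ligase subunit, rose by 0.62 in liver bud progenitors, a call that held under 5 of 8 other scalings, filters and fits. There FANCL was at 0.26 without cytoplasm replicate 2 and 0.45 without P-body replicate 2, neither of which passed. In the other cell types it was between -0.1 and 0.34. FANCF had 0 and 4 counts in P-bodies and 1 and 1 in cytoplasm of HEK293T, and was called in no cell type by the main fit. In mESC that held under 5 of 7 other scalings, filters and fits, over which FANCF was at -1.03 to -0.62.

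FANCD2 and FANCI form the pair that the core complex modifies, and each was called in both directions among the cell types. FANCD2 (chromosome 3, 10026370 to 10101932, plus strand) had 39 and 45.2 CPM in P-bodies against 84.5 and 79.9 in the cytoplasm of HEK293T, and 58.1 and 62.4 against 81.3 and 80.7 in liver bud progenitors. The same fractions held 28 and 33.7 against 34 and 35.7 in neurons, and 118 and 128 against 76.4 and 78.9 in mESC. P-bodies lay below cytoplasm in the 3 human cell types and above it in mESC. Its log2 changes were -0.96 ± 0.09, -0.43 ± 0.09, -0.17 ± 0.19 and 0.66 ± 0.07 in that order (edgeR adjusted p = 5.5e-14, 7.12e-05, 0.518 and 8.87e-09). FANCI (chromosome 15, 89243945 to 89317261, plus strand) had 48.5 and 48.6 CPM in P-bodies against 61.6 and 57.1 in the cytoplasm of HEK293T, and 38.2 and 40.7 against 32.1 and 36.2 in liver bud progenitors. For FANCI neurons had 52.3 and 49.4 against 30.7 and 24.3, and mESC had 78.8 and 71.9 against 68.4 and 81.4. It fell by 0.29 in HEK293T (adjusted p = 0.00838) and rose by 0.89 in neurons (0.00205). The HEK293T call held under 5 of 8 other scalings, filters and fits, and DESeq2 (0.16) was among those where it was lost. It was also lost without cytoplasm replicate 1 and without P-body replicate 1 or 2. The differences of HEK293T and mESC from the other cells were not tested.

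In homologous recombination BRCA1, BRCA2, PALB2 and BRIP1 were enriched in all 4 cell types, but with library size only BRCA1 was not called in mESC (-0.02) and BRCA2 turned there to depleted (-0.12, adjusted p = 0.0329). BRCA1 (chromosome 17, 43044295 to 43170245, minus strand), a ubiquitin ligase that promotes resection and recruits PALB2, had 803 and 792 CPM in P-bodies against 331 and 358 in the cytoplasm of HEK293T, and 288 and 275 against 142 and 151 in liver bud progenitors. Values of 351 and 417 against 85.2 and 96 were counted in neurons, and of 384 and 369 against 288 and 290 in mESC. The log2 changes of BRCA1 were 1.21 ± 0.05, 0.94 ± 0.07, 2.08 ± 0.11 and 0.38 ± 0.04 (edgeR adjusted p from 3.71e-28 to 7e-08). This was a fold of 4.24 in neurons and 1.3 in mESC. BRCA2 (chromosome 13, 32315086 to 32400268, plus strand), which acts with PALB2 at resected ends, had 256 and 258 CPM in P-bodies against 195 and 173 in the cytoplasm of HEK293T, and 187 and 181 against 113 and 103 in liver bud progenitors. BRCA2 was at 26.1 and 34.4 against 17.1 and 18.4 in neurons, and at 495 and 477 against 426 and 376 in mESC. Its log2 changes were 0.48 ± 0.06, 0.77 ± 0.07, 0.77 ± 0.22 and 0.28 ± 0.05 in that order (edgeR adjusted p from 3.92e-14 to 0.0197). P-bodies lay above cytoplasm in all libraries of each cell type for both genes.

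PALB2 (chromosome 16, 23603160 to 23641321, minus strand), the link between BRCA1 and BRCA2, had 149 and 153 CPM in P-bodies against 92.8 and 84.1 in the cytoplasm of HEK293T, and 77.2 and 80.8 against 38.5 and 41.5 in liver bud progenitors. The same fractions held 27.9 and 26.9 against 17.5 and 16.9 in neurons, and 101 and 101 against 45.2 and 44.9 in mESC. PALB2 changed by 0.77 ± 0.07, 0.98 ± 0.1, 0.67 ± 0.21 and 1.17 ± 0.07 on the log2 scale (edgeR adjusted p from 3.17e-14 to 0.0317). BRIP1 (chromosome 17, 61679139 to 61863559, minus strand), a helicase that binds BRCA1, had 159 and 164 CPM in P-bodies against 99.5 and 94.7 in the cytoplasm of HEK293T, and 94.8 and 99.5 against 57.5 and 59.1 in liver bud progenitors. For BRIP1 neurons had 44.2 and 67.3 against 17.1 and 21.1, and mESC had 147 and 133 against 69.1 and 60.8. This gave log2 changes of 0.73 ± 0.07, 0.74 ± 0.09, 1.55 ± 0.22 and 1.11 ± 0.07 (edgeR adjusted p from 4.92e-14 to 0.000143). For these genes too all P-body libraries were the higher ones in each cell type. The neuron calls of BRCA2 and PALB2 were lost without cytoplasm replicate 1 (adjusted p = 0.187 and 0.231) and without cytoplasm replicate 2 (0.11 and 0.261).

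RAD51C and XRCC2, which also act in homologous recombination, gave fewer calls. RAD51C (chromosome 17, 58692573 to 58735611, plus strand) had 14.1 and 16.8 CPM in P-bodies against 27 and 23.4 in the cytoplasm of HEK293T, and 4.82 and 3.31 against 2.64 and 3.29 in liver bud progenitors. Values of 5.85 and 1.29 against 2.36 and 3.2 were counted in neurons, and of 38.4 and 39.4 against 21.8 and 19.1 in mESC. It was depleted in HEK293T (-0.7 ± 0.14, edgeR adjusted p = 3.32e-05) and enriched in mESC (0.93 ± 0.12, 3.17e-07). The HEK293T call was lost when all human libraries were fitted together (0.234). XRCC2 rose by 0.55 in liver bud progenitors and was at 0.07, -0.24 and -0.15 in HEK293T, neurons and mESC without passing.

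Of 17 other genes of homologous recombination 10 were enriched and 4 depleted in HEK293T, and 9 and 3 were in liver bud progenitors. In mESC 10 were enriched and 1 depleted. In neurons 11 were enriched and 0 depleted by edgeR, with 1, XRCC3, lower at an unadjusted p under 0.05. RBBP8, which starts end resection, had 640 and 624 CPM in P-bodies against 258 and 257 in cytoplasm of HEK293T, a log2 change of 1.29 ± 0.06. Its values were 354 and 360 CPM in P-bodies against 131 and 120 in cytoplasm of liver bud progenitors (1.51 ± 0.07). EXO1, a resection nuclease, rose by 1.15 ± 0.06 in HEK293T and by 2.19 ± 0.15 in neurons.

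**Figure D3:**
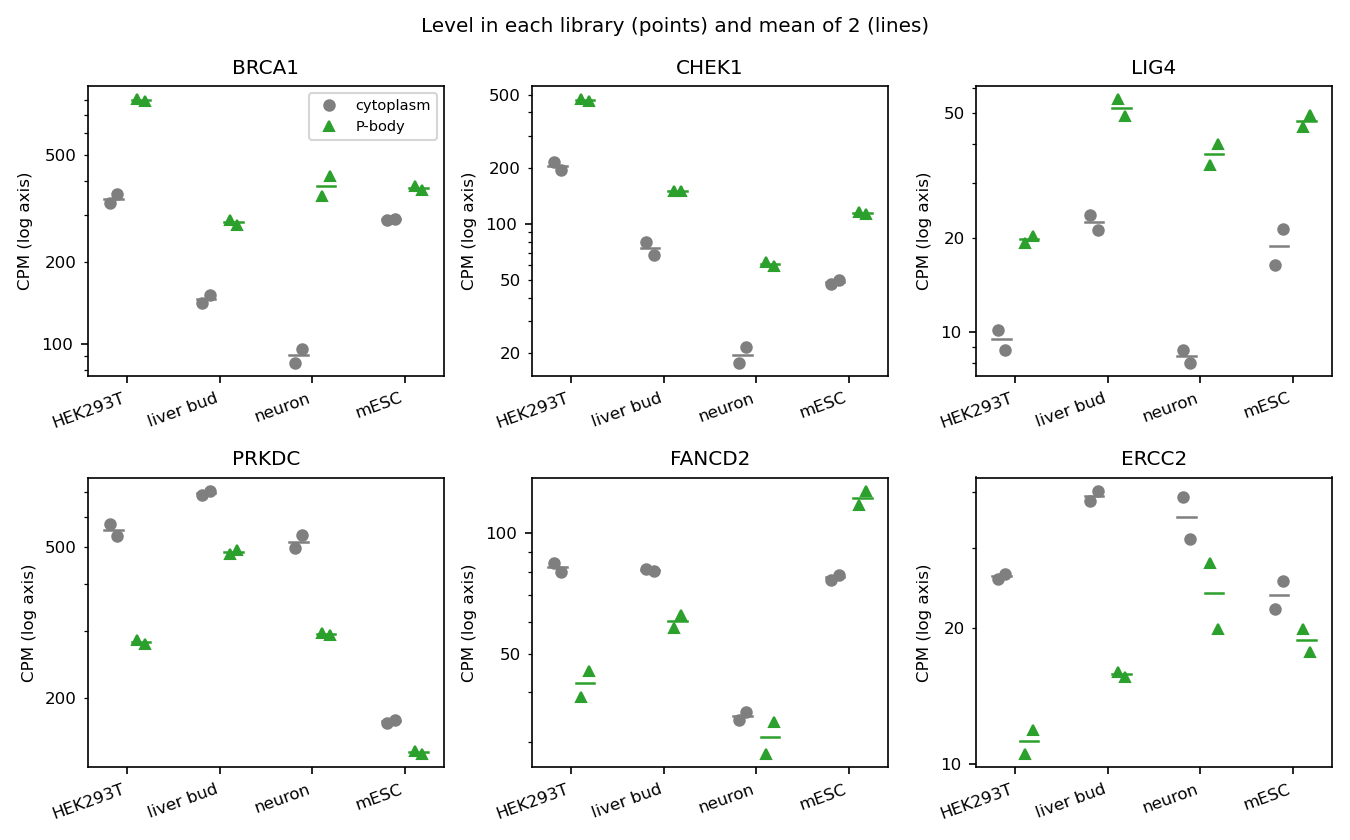
Level in CPM (log axis) of 6 genes in each library, with cytoplasm in grey and P-bodies in green and a line at the mean of 2 libraries. P-body points lie above cytoplasm points in the 4 cell types for BRCA1 (in mESC not with library size only), CHEK1 and LIG4 and below them for PRKDC and ERCC2, while FANCD2 lies below in the human cells and above in mESC.

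Of the MRN complex, which senses double-strand breaks, RAD50 and NBN were enriched in every cell type, though RAD50 in mESC was at -0.03 with library size only. MRE11, the nuclease, passed in none of the 3 human cell types. NBN (chromosome 8, 89924515 to 90003228, minus strand) had 567 and 571 CPM in P-bodies against 320 and 297 in the cytoplasm of HEK293T, and 317 and 313 against 150 and 130 in liver bud progenitors. NBN was at 95.5 and 100 against 29.7 and 25.7 in neurons, and at 63.6 and 61.8 against 33.5 and 34.7 in mESC. The log2 changes of NBN were 0.88 ± 0.06, 1.18 ± 0.07, 1.82 ± 0.15 and 0.88 ± 0.09 (edgeR adjusted p from 6.71e-24 to 9.72e-07). RAD50 (chromosome 5, 132556019 to 132646349, plus strand) had 260 and 268 CPM in P-bodies against 158 and 155 in the cytoplasm of HEK293T, and 447 and 448 against 280 and 280 in liver bud progenitors. The same fractions held 226 and 229 against 128 and 138 in neurons, and 178 and 175 against 131 and 140 in mESC. Its log2 changes were 0.76 ± 0.06, 0.68 ± 0.06, 0.77 ± 0.1 and 0.38 ± 0.06 in that order (edgeR adjusted p from 1.15e-16 to 5.04e-05). All P-body libraries lay above all cytoplasm libraries of the same cell type for both. MRE11 was at -0.15 in HEK293T, 0.05 in liver bud progenitors and 0.68 in neurons.

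Among the checkpoint genes CHEK1 was enriched in every cell type. CHEK1 (chromosome 11, 125625163 to 125676255, plus strand), which ATR activates to hold the cell cycle, had 472 and 464 CPM in P-bodies against 216 and 196 in the cytoplasm of HEK293T, and 150 and 151 against 80.2 and 67.7 in liver bud progenitors. For CHEK1 neurons had 62.1 and 58.9 against 17.8 and 21.5, and mESC had 116 and 113 against 47.5 and 49.8. CHEK1 changed by 1.18 ± 0.06, 1.03 ± 0.08, 1.62 ± 0.18 and 1.23 ± 0.07 on the log2 scale (edgeR adjusted p from 6.82e-26 to 1.26e-05). The fractions did not overlap in any cell type. ATR itself fell by 0.55 on the log2 scale in HEK293T and its partner ATRIP by 0.66, and neither passed in the other cell types. The ATRIP call held under 6 of 8 other scalings, filters and fits, and DESeq2 (adjusted p = 0.146) was among those where it was lost. It was also lost without cytoplasm replicate 1 and without P-body replicate 1. ATRIP shares 26.7% of its exonic bases with TREX1 on the same strand. CHEK2, a kinase downstream of ATM, rose by 0.58 in liver bud progenitors and did not pass elsewhere. In mESC that held under 5 of 7 other scalings, filters and fits.

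ATM (chromosome 11, 108223044 to 108369102, plus strand) passed as enriched in HEK293T, liver bud progenitors and mESC, at log2 changes of 0.38, 0.39 and 0.4. It had 192 and 108 CPM in P-bodies against 118 and 111 in the cytoplasm of HEK293T, and 278 and 282 against 197 and 230 in liver bud progenitors. Values of 94.2 and 92.4 against 89.7 and 97.2 were counted in neurons, and of 323 and 308 against 237 and 241 in mESC. HEK293T P-body replicate 2 lay below both cytoplasm libraries. Without P-body replicate 1 the HEK293T value was -0.08 (edgeR adjusted p = 0.579), and with DESeq2 it was 0.48 (0.324). The liver bud call of ATM held under 7 of 8 other scalings, filters and fits. The mESC value was 0 with library size only.

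MDM2, a ubiquitin ligase, was enriched in every cell type. MDM2 (chromosome 12, 68808177 to 68845544, plus strand) had 454 and 473 CPM in P-bodies against 363 and 329 in the cytoplasm of HEK293T, and 744 and 725 against 465 and 384 in liver bud progenitors. MDM2 was at 119 and 154 against 56.7 and 62 in neurons, and at 932 and 932 against 291 and 300 in mESC. This gave log2 changes of 0.42 ± 0.06, 0.79 ± 0.06, 1.2 ± 0.14 and 1.66 ± 0.04 (edgeR adjusted p from 1.92e-20 to 2.45e-05). The mESC fold of 3.15 was the highest of the listed genes called there averaging 5 CPM or more. MDM4, its relative, rose by 0.55 in HEK293T, 0.65 in neurons and 1.15 in mESC and was at 0.01 in liver bud progenitors. TP53BP1, the chromatin protein that favours end joining, was depleted in liver bud progenitors (-0.59) and was at 0.11 in HEK293T and -0.04 in neurons. It shares 28.8% of its exonic bases with TUBGCP4 on the opposite strand, and whether counting used strand is not given in the sources used here.

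BLM, a RecQ helicase that unwinds recombination intermediates, was enriched in every cell type. BLM (chromosome 15, 90717346 to 90816166, plus strand) had 299 and 306 CPM in P-bodies against 165 and 149 in the cytoplasm of HEK293T, and 93.2 and 84.6 against 60.9 and 52.4 in liver bud progenitors. The same fractions held 59.6 and 62.4 against 23 and 24.9 in neurons, and 614 and 605 against 375 and 354 in mESC. The log2 changes of BLM were 0.95 ± 0.06, 0.65 ± 0.09, 1.35 ± 0.16 and 0.74 ± 0.04 (edgeR adjusted p from 1.85e-20 to 3.27e-05). The fractions did not overlap in any of them. WRN, its relative, was at 0.16 in HEK293T and rose by 0.74 in mESC, 1.03 in neurons and 0.32 in liver bud progenitors. Its liver bud call held under 4 of 8 other scalings, filters and fits, and DESeq2 (adjusted p = 0.119) was among those where it was lost. That call was also lost without cytoplasm replicate 2 and without P-body replicate 2, and the neuron call of WRN without cytoplasm replicate 1.

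In mismatch repair PMS2, an endonuclease subunit, was enriched in every cell type, in mESC not with library size only, and MSH6, a mismatch sensor, in none. PMS2 (chromosome 7, 5970925 to 6009130, minus strand) had 80.1 and 83.6 CPM in P-bodies against 40 and 39 in the cytoplasm of HEK293T, and 32 and 33.8 against 23.9 and 21.2 in liver bud progenitors. For PMS2 neurons had 42.6 and 52.9 against 32.2 and 34.9, and mESC had 33.6 and 33.8 against 20.6 and 23.6. Its log2 changes were 1.05 ± 0.09, 0.55 ± 0.14, 0.51 ± 0.17 and 0.61 ± 0.12 in that order (edgeR adjusted p from 1.75e-15 to 0.0437). Its human values are uncertain, as PMS2, like CHEK2, has close pseudogene copies that can share reads. The neuron call was lost without cytoplasm replicate 1 (adjusted p = 0.308), cytoplasm replicate 2 (0.163) or P-body replicate 2 (0.108). MSH6 (chromosome 2, 47695530 to 47810063, plus strand) had 64.9 and 66.8 CPM in P-bodies against 94.6 and 89.4 in the cytoplasm of HEK293T, and 86.1 and 80.1 against 79.4 and 84.4 in liver bud progenitors. Values of 78.5 and 62.6 against 53.7 and 64.3 were counted in neurons, and of 141 and 143 against 198 and 203 in mESC. It was depleted in HEK293T (-0.48 ± 0.08) and in mESC (-0.5 ± 0.05), where it had the lowest log2 change of the listed genes called averaging 5 CPM or more. MSH6 shares 22.7% of its exonic bases with FBXO11 on the opposite strand.

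Nucleotide excision repair, which removes bulky lesions, differed by gene. XPC (chromosome 3, 14145147 to 14178621, minus strand), the damage sensor, had 70.5 and 72.5 CPM in P-bodies against 28.7 and 31.5 in the cytoplasm of HEK293T, and 79.2 and 64.8 against 57.7 and 67.9 in liver bud progenitors. XPC was at 120 and 120 against 47.5 and 52.6 in neurons, and at 13.3 and 15.3 against 18.8 and 15.9 in mESC. It was enriched in HEK293T (1.25 ± 0.1, edgeR adjusted p = 5.25e-17), at the highest log2 change of the listed genes called there averaging 5 CPM or more, and in neurons (1.26 ± 0.12, 5.37e-06). In liver bud progenitors (0.19) and mESC (-0.28) it did not pass. ERCC2 (chromosome 19, 45349837 to 45370918, minus strand), a TFIIH helicase, had 10.5 and 11.9 CPM in P-bodies against 25.7 and 26.4 in the cytoplasm of HEK293T, and 16 and 15.6 against 38.2 and 40.3 in liver bud progenitors. The same fractions held 27.8 and 19.9 against 39.1 and 31.5 in neurons, and 19.9 and 17.7 against 22 and 25.4 in mESC. P-bodies lay below cytoplasm in all libraries of each cell type. The log2 changes were -1.21 ± 0.15, -1.31 ± 0.14, -0.57 ± 0.22 and -0.33 ± 0.14, which passed in HEK293T and liver bud progenitors (adjusted p = 2.29e-10 and 2.48e-12).

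ERCC6, which acts in transcription-coupled repair, rose by 1 in HEK293T, 0.74 in liver bud progenitors and 1.12 in neurons. ERCC4, a nuclease subunit, rose by 0.38 in HEK293T and 0.75 in liver bud progenitors. In neurons it was at 0.48 and did not pass (edgeR adjusted p = 0.0528), but passed with library size only (0.0116), RLE size factors (0.034), the filterByExpr filter (0.0204), the replicate block (0.0294), all human libraries in a single fit (0.0143) and without P-body replicate 2 (0.00382). XPA rose by 1.19 in liver bud progenitors at no more than 6.21 CPM in any library there, a call lost with DESeq2 (adjusted p = 0.0575) and without cytoplasm replicate 1 (0.0579). In mESC 0 of the 5 genes passed with the main edgeR fit and 0 with DESeq2, and 1, Ercc2, had an unadjusted p under 0.05. Among 7 other scalings, filters and fits Ercc2 remained without a call in 5 and Xpc in 6, and in the rest they passed as depleted. DDB1, a damage sensor subunit outside the 38, was depleted in all 4 cell types, at -1.82 ± 0.07 in HEK293T, -0.73 ± 0.07 for liver bud progenitors, -0.88 ± 0.11 for neurons and -0.5 ± 0.04 for mESC.

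The end-joining genes LIG4 and PRKDC went in opposite directions in every cell type. LIG4 (chromosome 13, 108207439 to 108218368, minus strand), the ligase that seals the break, had 19.3 and 20.3 CPM in P-bodies against 10.2 and 8.77 in the cytoplasm of HEK293T, and 55.4 and 48.8 against 23.6 and 21.2 in liver bud progenitors. For LIG4 neurons had 34.1 and 40 against 8.78 and 8, and mESC had 45.3 and 49.3 against 16.4 and 21.4. LIG4 changed by 1.06 ± 0.16, 1.22 ± 0.12, 2.14 ± 0.23 and 1.32 ± 0.12 on the log2 scale (edgeR adjusted p from 2.82e-13 to 1.19e-05). In liver bud progenitors and in neurons no other listed gene that was called and averaged 5 CPM or more had a higher log2 change. PRKDC (chromosome 8, 47773111 to 47960178, minus strand), the catalytic subunit of the DNA-dependent protein kinase, had 284 and 278 CPM in P-bodies against 577 and 537 in the cytoplasm of HEK293T, and 481 and 493 against 686 and 706 in liver bud progenitors. Values of 297 and 294 against 498 and 538 were counted in neurons, and of 145 and 142 against 172 and 175 in mESC. This gave log2 changes of -0.99 ± 0.06, -0.51 ± 0.05, -0.81 ± 0.08 and -0.27 ± 0.05 (edgeR adjusted p from 2.27e-23 to 0.000142). All P-body libraries lay below the cytoplasm libraries of the same cell type for PRKDC and above them for LIG4.

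Of 85 other genes of DNA repair and damage signalling, 33 were enriched and 30 depleted in HEK293T, with a median log2 change of 0.05. The counts were 39 and 19 for liver bud progenitors (median 0.32), 26 and 15 for neurons (0.09), and 40 and 15 of 84 for mESC (0.21). Base excision and single-strand break repair, a list of 12 genes, had more depleted than enriched genes in each cell type. There 3 were enriched and 6 depleted in HEK293T, 1 and 5 for liver bud progenitors, 1 and 3 for neurons, and 1 and 4 for mESC. OGG1, the glycosylase for oxidized guanine, had 24.8 and 29.6 CPM in P-bodies against 69.1 and 56.4 in cytoplasm of neurons, a log2 change of -1.21 ± 0.17. Of 10 other Fanconi genes 2, 6, 2 and 4 were enriched and 3, 2, 1 and 2 depleted in the same order of cell types.

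Of 22 other genes of checkpoint and chromatin signalling (21 in mESC) 11, 12, 6 and 13 were enriched and 9, 3, 7 and 4 depleted in that order. TOPBP1, which activates ATR, rose by 1.43 ± 0.1 in neurons and 0.95 ± 0.04 in mESC. BRCC3, a deubiquitinase that acts with BRCA1, rose by 1.28 ± 0.08 in liver bud progenitors. In mESC it had 431 and 398 CPM in P-bodies against 131 and 131 in cytoplasm (1.66 ± 0.05). MDC1, which binds marked histones at breaks, fell in liver bud progenitors (-1.48 ± 0.09), and H2ax, that histone, fell in mESC (-0.74 ± 0.07).

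The liver bud progenitors and the neurons came from the same line and carried the same RNA label, so their levels and their P-body changes could be compared. In cytoplasm 25 of the 38 genes were lower in neurons (25.8% of all genes were) and 3 were higher (26%). Their median log2 difference was -0.82, against -0.16 over all genes. At 5 CPM or more, 71.4% of 35 listed genes and 35.7% of all genes were lower. The cytoplasm libraries of the cell types did not overlap for 30 of the 38, and for 72.6% of all genes. In bulk libraries fewer cells of a type and less RNA per cell cannot be told apart. Of the 15 markers of dividing cells 11 were lower in neurons and 2 higher, with a median of -1.04, and their part in the result was not tested.

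The genes with the smallest p among those lower in neurons were MDM2, BRCA2, NBN and FANCB. FANCB had 48.6 and 45.5 CPM in liver bud progenitor cytoplasm and 4.48 and 7.12 CPM in neuron cytoplasm, a log2 difference of -3.02 ± 0.19 (edgeR adjusted p = 2e-24). MDM2 had 433 and 359 CPM in liver bud progenitor cytoplasm and 61.2 and 66.9 CPM in neuron cytoplasm (-2.63 ± 0.09). Both neuron libraries were below both liver bud libraries for each of them. BRCA2 had 105 and 96.7 CPM in liver bud progenitor cytoplasm and 18.4 and 19.9 CPM in neuron cytoplasm (-2.4 ± 0.13). NBN had 140 and 121 CPM in liver bud progenitor cytoplasm and 32.1 and 27.7 CPM in neuron cytoplasm (-2.12 ± 0.11), and the cell types did not overlap for BRCA2 or NBN either. By role, 5 of 6 genes of homologous recombination, 3 of 3 of MRN, 4 of 5 of the checkpoint group and 1 of 5 of nucleotide excision repair were lower in neurons. The calls of FANCA, MSH6 and PRKDC, at -0.47, -0.26 and -0.22, were each lost without 2 or 3 of the single libraries, which left FANCA at -0.36 to -0.37, MSH6 at -0.31 to -0.14 and PRKDC at -0.19 to -0.17.

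TP53BP1, PMS2 and FANCC were higher in neurons. TP53BP1 had 121 and 132 CPM in liver bud progenitor cytoplasm and 659 and 689 CPM in neuron cytoplasm, a log2 difference of 2.41 ± 0.08 (edgeR adjusted p = 2.32e-40). PMS2 had 22.2 and 19.9 CPM in liver bud progenitor cytoplasm and 34.8 and 37.7 CPM in neuron cytoplasm (0.78 ± 0.15). FANCC had 13.6 and 14.1 CPM in liver bud progenitor cytoplasm and 21.4 and 17.8 CPM in neuron cytoplasm (0.5 ± 0.19). Neurons were higher in both libraries of each. The FANCC call was lost with DESeq2 (adjusted p = 0.185), with library size only (at 0.11), without liver bud replicate 1 (0.125) or 2 (0.0986), and without neuron replicate 1 (0.173).

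**Figure D4:**
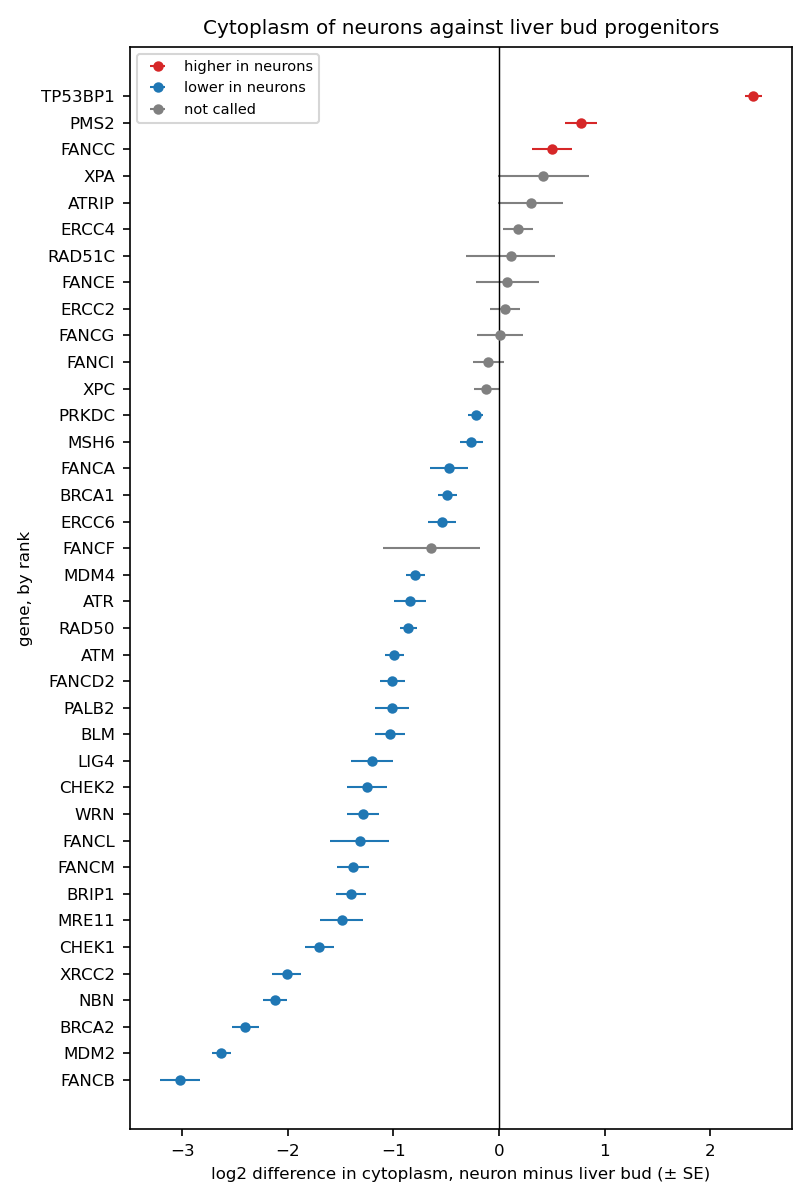
Log2 difference in cytoplasm between neurons and liver bud progenitors (x axis, ± SE, 2 libraries per cell type) for the 38 genes in rank order, with genes called higher in neurons in red, lower in blue and others in grey. FANCB lies at -3.02 at the bottom and TP53BP1 at 2.41 at the top.

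The P-body change itself was higher in neurons than in liver bud progenitors for 11 of the 38 genes (9.21% of all genes) and lower for 3 (8.5%), by a test of the difference over 8 libraries. These libraries include the cytoplasm libraries compared above. The median difference was 0.24, beside 0.23 over all genes, and at 5 CPM or more it was 0.36 for 34 listed genes and -0.11 for all. At that level 32.4% of the listed genes were higher and 8.82% lower, beside 13.8% and 16.3% of all genes. The listed genes with the smallest p were BRCA1, XPC, TP53BP1 and FANCM. BRCA1 changed by 0.94 in liver bud progenitors and 2.08 in neurons on the log2 scale, a difference of 1.13 ± 0.13 (edgeR adjusted p = 1.88e-05). XPC differed by 1.06 ± 0.17 (0.000486) and FANCM by 1.17 ± 0.23 (0.00203). TP53BP1 had 91.6 and 88.4 CPM in P-bodies against 130 and 142 in the cytoplasm of liver bud progenitors, and 607 and 605 against 611 and 638 in neurons, a difference of 0.54 ± 0.1 (0.00159). These 4 genes passed under all 16 alternatives, with values of 0.88 to 1.49 for BRCA1, 0.92 to 1.42 for XPC, 0.42 to 0.9 for TP53BP1 and 0.88 to 1.52 for FANCM. Of the 15 markers of dividing cells 6 also had a higher P-body change in neurons, and their part in the result was not tested.

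NBN, CHEK1, BLM, BRIP1, LIG4, MDM4 and FANCI were also higher in neurons, with differences from 0.59 for CHEK1 to 0.91 for LIG4. Without neuron cytoplasm replicate 2, the 7 did not pass, and 4 of the 38 genes were higher. XRCC2, PRKDC and ATM had lower P-body changes in neurons, PRKDC not with library size only. XRCC2 had 105 and 110 CPM in P-bodies against 75.4 and 72.2 in the cytoplasm of liver bud progenitors, and 10.8 and 15.9 against 16.9 and 14.7 in neurons, a difference of -0.79 ± 0.23 (edgeR adjusted p = 0.0247). Its P-bodies lay above cytoplasm in liver bud progenitors and overlapped it in neurons. PRKDC differed by -0.3 ± 0.09 (0.0385) and ATM by -0.4 ± 0.13 (0.0461). With library size only, which moved the median of all genes by 0.36, 19 genes were higher and 0 lower, PRKDC was at 0.05, and XRCC2 (-0.43) and ATM (-0.04) did not pass. XRCC2 and PRKDC also lost their calls without any 1 of the liver bud libraries. The ATM call was lost under 9 of the 16 alternatives (values of -0.52 to -0.04 over all 16), among them DESeq2 (adjusted p = 0.0771) and leaving out liver bud cytoplasm replicate 1 (-0.29), liver bud P-body replicate 1 (-0.42) or 2 (-0.38), or neuron cytoplasm replicate 2 (-0.43). Without single libraries the counts ranged from 4 to 13 higher and from 0 to 7 lower.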

How the data were processed

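RNA of sorted P-bodies and of cytoplasm was sequenced in 4 cell types. Read counts per gene, as whole numbers, were deposited by the authors in a human (hg38) and a mouse (mm10) table, neither of which holds a gene with under 10 reads in all. By the study's methods total RNA libraries were quantified with salmon in the nf-core pipeline on UCSC refGene and Smart-seq libraries with hisat2 and featureCounts. Which of these made the polyA columns, and whether strand was used, is not given in the sources used here. The 4 deposited tables of the authors' own comparisons hold log2 fold changes and adjusted p-values, and were not used.

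Counts were tested with edgeR 4.0.16 in R 4.3.3 (quasi-likelihood, TMM, 2-sided). Each cell type was fitted on its own 4 libraries, the difference in P-body change on 8 and the cytoplasm comparison on 4. Genes at 0 in all libraries of a fit were dropped, and Benjamini-Hochberg adjustment ran over all other genes. CPM are TMM-scaled within a comparison, so levels differ slightly between comparisons. Errors are SE of log2 changes over 2 libraries per group. The code was tested on simulated data: of 200 genes changed by 1.58 on the log2 scale, 99.5% were recovered for HEK293T, 98% for liver bud progenitors, 84% for neurons, 98.5% for mESC, 79% for the difference and 97.5% in cytoplasm. Codon composition came from GENCODE 44 canonical transcripts and, in mouse, the longest coding sequence of GENCODE M21. Exon overlap was taken from the same annotations.

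Groups came from the labels. The 38 genes, their roles and the other lists were chosen with earlier results of these data known. Values in every library were given for genes called in the same direction in all cell types that measure them or in both directions, for the called genes with the highest and lowest log2 change in each cell type at a mean of at least 5 CPM, and for the 4 per direction with the smallest p in the other comparisons. Of the other repair genes, 2 per direction and cell type with the smallest p were named. One gene that this rule names is not reported here. Alternatives were DESeq2 1.42.0, other scalings, filters and fits, a replicate block, and leaving out ribosomal RNA genes or single libraries.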

Additional observations from a re-analysis of the deposited data

Results flagged for a closer look

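The P-body change differed between neurons and liver bud progenitors for 14 of the 38 genes, by the edgeR test of the difference itself, adjusted over all genes. It was higher in neurons by 1.17 on the log2 scale for FANCM, 1.13 for BRCA1, 1.06 for XPC, 0.91 for LIG4, 0.8 for BRIP1, 0.69 for BLM, 0.67 for FANCI, 0.64 for NBN, 0.63 for MDM4, 0.59 for CHEK1 and 0.54 for TP53BP1. FANCM, BRCA1, XPC and TP53BP1 passed under all 16 alternatives. The other 7 did not pass without neuron cytoplasm replicate 2, and BRIP1 and FANCI lost their calls under 7 alternatives, LIG4 and CHEK1 under 5, BLM under 4, and NBN and MDM4 under 1. It was lower by the values -0.79 for XRCC2, -0.4 for ATM and -0.3 for PRKDC. With library size only these 3 did not pass, at -0.43 for XRCC2, -0.04 for ATM and 0.05 for PRKDC. ATM lost its call under 9 of the 16 alternatives, and XRCC2 and PRKDC lost theirs under 7 each.

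Called changes in opposite directions were also found among cell types, and these differences were not tested. HEK293T and mESC share the RNA label but differ in species and line, and the other pairs with opposite calls differ in RNA label. FANCD2 was at -0.96 in HEK293T, -0.43 in liver bud progenitors and 0.66 in mESC. FANCI was at -0.29 in HEK293T and 0.89 in neurons, and its HEK293T call held under 5 of 8 other scalings, filters and fits. RAD51C was at -0.7 in HEK293T and 0.93 in mESC.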

How the results depend on the processing

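With 2 libraries per group, and for a gene such as FANCG 2 to 123 counts in the neuron libraries, changes of low genes carry wide errors. Library size only shifted the all-gene median by -0.13 for HEK293T, -0.19 for liver bud progenitors, 0.16 for neurons, -0.4 for mESC, 0.36 for the difference between neurons and liver bud progenitors and -0.38 for cytoplasm. In mESC it gave 12 enriched and 14 depleted genes and a median of -0.11, with FANCM at -0.09, BRCA1 at -0.02, BRCA2 at -0.12 (called as depleted, adjusted p = 0.0329), RAD50 at -0.03 and ATM at 0. In the difference it gave 19 higher and 0 lower, with PRKDC at 0.05. The filterByExpr filter gave 8 depleted genes in mESC beside 18 enriched, and 16 higher and 0 lower in the difference. All human libraries in one fit gave 7 depleted genes in HEK293T, 6 in neurons, and 11 higher and 5 lower in the difference. RLE size factors gave 12 higher and 1 lower there. ATM in HEK293T was at -0.08 without P-body replicate 1 and at 0.74 without P-body replicate 2. The cause of these changes was not tested.

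Without single libraries HEK293T had 17 to 19 enriched and 9 to 11 depleted genes, liver bud progenitors 20 to 21 and 5 to 6, neurons 14 to 20 and 2 to 5 (5 without P-body replicate 1), mESC 18 and 3 to 5 (5 without cytoplasm replicate 1), and cytoplasm 2 to 3 higher and 23 to 24 lower. The difference had 4 to 13 higher and 0 to 7 lower. It had 6 to 10 higher and 0 to 1 lower without a liver bud library, 7 and 3 without neuron cytoplasm replicate 1, 4 and 2 without replicate 2, and 13 and 7 or 12 and 6 without neuron P-body replicate 1 or 2.

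Replicate numbers did not pair the fractions: deviations from the group means correlated between same-numbered libraries at -0.0713 for HEK293T, 0.00536 for liver bud progenitors, 0.0453 for neurons, 0.021 for mESC and -0.0739 between the cytoplasm libraries. The replicate block gave 18 enriched and 11 depleted genes in HEK293T, 21 and 6 in liver bud progenitors, 19 and 5 in neurons, and 18 and 3 in mESC, 15 higher and 5 lower in the difference, and 3 higher and 24 lower in cytoplasm.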

Other observations

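In the mouse table MRE11 and TP53BP1 were looked up under their older mouse symbols after the other values were seen, and they are in no count of the report. Mre11a had 59.8 and 58.6 CPM in P-bodies against 34.1 and 41.4 in cytoplasm of mESC, a log2 change of 0.65 ± 0.1 (SE) with an edgeR adjusted p of 4.09e-06. Trp53bp1 had 133 and 137 CPM against 126 and 126, a log2 change of 0.1 ± 0.06, which did not pass (adjusted p = 0.148).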
